A study of Homo sapiens with 6 samples.

Results

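The 10 genes described here encode subunits of Polycomb repressive complex 2 (PRC2). They were chosen by name: EZH1, EZH2, SUZ12, EED, RBBP4 and RBBP7 of the core complex, and the accessory subunits MTF2, PHF1, PHF19 and AEBP2. Each symbol matched 1 row, so the set is 10 of the 19785 genes in the table, and all 10 passed the filter on low values, a mean abundance of at least 1 over the 6 libraries. RNA was sequenced from SET-2, an established megakaryoblastic leukemia cell line that the labels call secondary AML, and from 1 derivative named SET-2 OTX P/R, the persister and resistant cells. OTX is read here as birabresib, a BET bromodomain inhibitor, because the series title names resistance to BET inhibitors. The design text calls the 3 libraries of each group biologic replicates. They came from untreated, exponentially growing cultures in RPMI1640 with serum, so the lines were compared without drug. With 1 derivative, resistance cannot be told apart from any other difference between the lines.

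PRC2 is the enzyme complex that methylates histone H3 at the lysine of the H3K27me3 mark, which is found at silenced developmental genes. EZH2 or its paralog EZH1 carries the catalytic SET domain, SUZ12 is the scaffold, EED binds the mark and stimulates the enzyme, and RBBP4 and RBBP7 are histone-binding WD40 proteins. Accessory proteins sort the complex into 2 classes: the Polycomb-like proteins MTF2, PHF1 and PHF19 define PRC2.1, and AEBP2 with JARID2 defines PRC2.2. In myeloid neoplasms EZH2, SUZ12 and EED are known as targets of loss-of-function changes, and EZH2 lies on the long arm of chromosome 7.

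The sums of the values were 419375 to 419437 in all 6 libraries because the authors' table is quantile-normalized. An abundance therefore reflects the rank of a gene in its library, and the depth behind it is unknown. No label used here names the unit before that step. Values were taken as per length, as StringTie's abundance measures are, and each comparison of levels between genes rests on that assumption. Libraries correlated at 0.986 to 0.988 inside a group and at 0.948 to 0.949 across groups (log2 values of the 10741 tested genes). In RNA from whole cultures, fewer cells expressing a gene and less RNA per cell cannot be told apart.

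The 3 members that passed the test are shown by their sequence upstream of a transcription start. RefSeq promoters on GRCh38.p14 were found for all 10 members, in 14 entries because some genes have 2 starts. Each line gives the last 200 bases before a start, 5′ to 3′ on the gene's strand, and capitals mark matches on either strand to the E2F motif TTTCCCGC or to the CCAAT box, read ATTGG on the other strand. The lines come from chr7:148884292-148884491 (minus strand, the start of EZH2 with CCAAT matches), chr17:31936807-31937006 (plus strand) and chr9:120877189-120877388 (minus strand, the start of PHF19 with an E2F match).
EZH2: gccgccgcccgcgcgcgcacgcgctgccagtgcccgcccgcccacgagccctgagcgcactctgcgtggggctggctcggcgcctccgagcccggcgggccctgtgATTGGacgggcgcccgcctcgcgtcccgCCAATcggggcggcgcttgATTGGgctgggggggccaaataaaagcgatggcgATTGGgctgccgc
SUZ12: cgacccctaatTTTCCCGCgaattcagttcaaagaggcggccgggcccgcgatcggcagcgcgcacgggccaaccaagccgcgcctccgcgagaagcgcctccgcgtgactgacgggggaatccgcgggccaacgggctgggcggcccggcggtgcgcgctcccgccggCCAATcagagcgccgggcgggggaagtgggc
PHF19: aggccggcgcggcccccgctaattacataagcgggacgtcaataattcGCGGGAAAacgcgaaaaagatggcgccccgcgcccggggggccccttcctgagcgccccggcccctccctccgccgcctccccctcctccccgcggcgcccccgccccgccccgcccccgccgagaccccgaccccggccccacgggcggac
EZH2 holds 4 CCAAT matches, at 13, 47, 66 and 94 bases upstream, and SUZ12 holds 1 at 31 bases. The E2F motif lies 189 bases upstream in SUZ12 and 152 bases upstream in PHF19. In the 250 bases upstream, TTTCCCGC or its reverse complement was present in 2 of the 14 member entries and in 1.39% of all 35116 promoters, and CCAAT or its reverse complement in 9 of the 14 and in 32.0%. TTTGGCGC, the other E2F form searched on both strands, was in no member entry and in 0.55% of all promoters. PHF19 also holds CCAAT, 209 bases upstream of the printed start, outside the bases shown, and 9 bases upstream of its other start. The other start of EZH2 holds no CCAAT match. These matches are descriptions of letters. Which start is used in these cells, and any part of the motifs in the changes, was not tested.

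Of the 10 members 2 rose in OTX P/R cells, EZH2 and PHF19, 1 fell, SUZ12, and 7 did not pass (limma, adjusted p under 0.05 over all 10741 tested genes). Across all tested genes 36.1% passed, 18.6% higher and 17.5% lower, so the share of members that changed was not above the background. For 6 members no OTX P/R library fell inside the parental range or the reverse, against 51.6% of all tested genes, 3 with OTX P/R above (26.8% of all tested genes) and 3 with parental above (24.9%). The median log2 fold change was 0.06 over the members and 0.02 over all tested genes. Fold changes here are differences of log2(value + 1), OTX P/R minus parental, a scale that shrinks the differences of low genes, and levels are linear abundances.

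**Figure D1:**
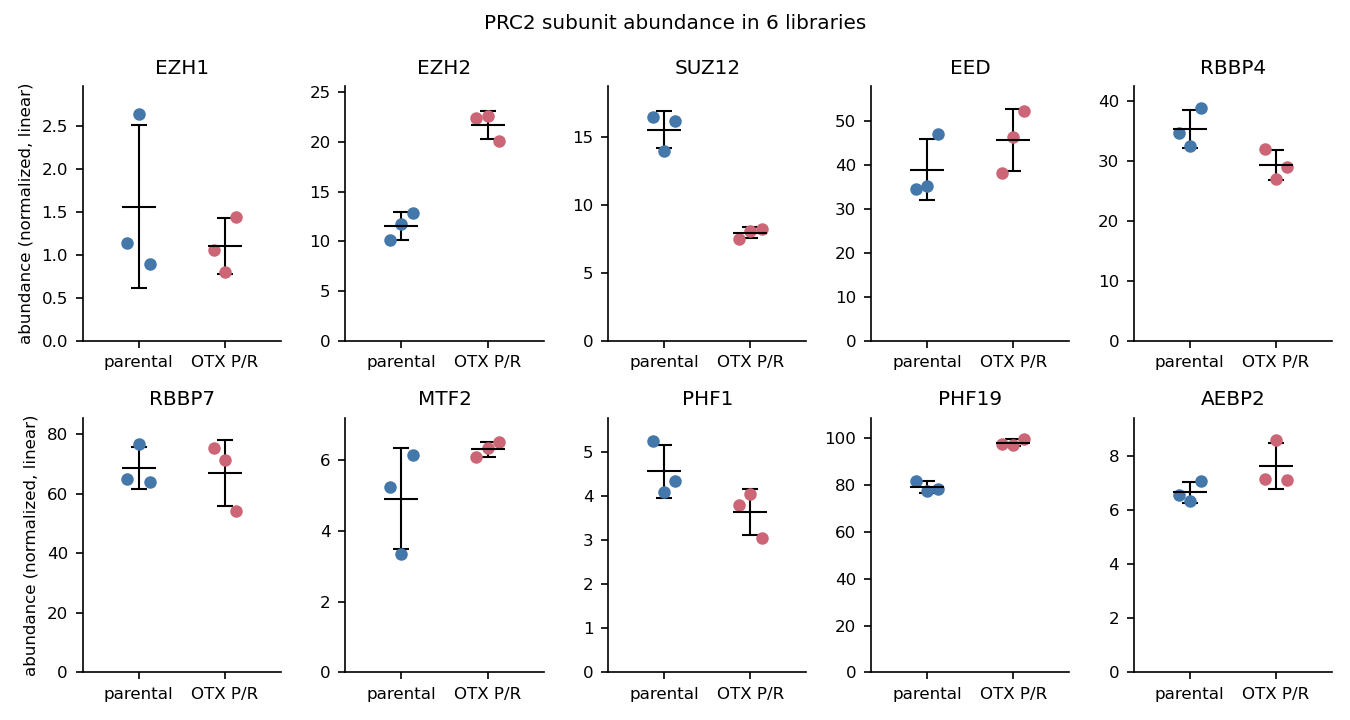
Linear normalized abundance (vertical axes, each starting at 0) of the 10 PRC2 subunit genes in the 3 parental and 3 OTX P/R libraries. Points are libraries, and bars are the mean and SD (n = 3 per group). The OTX P/R libraries lie above the parental ones for EZH2 and PHF19 and below them for SUZ12. By narrower margins they also lie above for AEBP2 and below for RBBP4 and PHF1, which were not called.

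EZH2, the main catalytic subunit of dividing cells, was measured at 10.1, 11.8 and 12.9 in parental libraries 1 to 3 and at 22.4, 22.6 and 20.1 in the OTX P/R libraries. Every OTX P/R library lay above every parental one, and the ratio of the group means was 1.87. The log2 fold change of EZH2 was 0.86 ± 0.10 SE (95% interval 0.62 to 1.10, limma adjusted p = 0.00123). EZH2 has a processed pseudogene, EZH2P1, on chromosome 21, so some reads may have been shared with that copy. EZH1, the paralog with weaker methyltransferase activity that is typical of resting cells, was the lowest member in both groups. It stood at 1.14, 2.64 and 0.891 in parental libraries and at 1.06, 0.8 and 1.44 in OTX P/R libraries. These ranges overlap, and parental library 2 alone is high. The log2 fold change of EZH1 was -0.24 (interval -0.88 to 0.41, limma adjusted p = 0.528), which did not pass, and without parental replicate 2 its difference was 0.05.

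The balance of the catalytic paralogs was compared as the log2 ratio of EZH2 to EZH1 in each library. The ratio of levels was 8.79, 4.45 and 14.5 in parental libraries and 21.2, 28.2 and 14.0 in OTX P/R libraries, so on the linear scale OTX P/R library 3 lies within the parental range. On the log2(value + 1) scale the groups did not overlap, with means of 2.35 ± 0.54 and 3.44 ± 0.30 (SD, n = 3 per group). The difference was 1.09, with an exact two-sided permutation p = 0.1, the smallest that 3 against 3 libraries can give, and 0.2 after adjustment over the 2 paralog pairs compared.

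SUZ12, the scaffold that joins the catalytic subunit to the histone-binding and accessory proteins, moved opposite to EZH2. It was measured at 16.5, 14.0 and 16.2 in parental libraries and at 7.50, 8.14 and 8.27 in OTX P/R libraries. All OTX P/R libraries lay well below all parental ones, with a ratio of parental to OTX P/R means of 1.95. SUZ12 fell by 0.88 on the log2 scale (SE 0.08, interval -1.08 to -0.69, limma adjusted p = 4.68e-04). SUZ12 has an unprocessed pseudogene, SUZ12P1, on the same chromosome, so reads may have been split between near-identical copies. EED, the reader of the trimethyl mark, was at 34.5, 35.2 and 46.9 in parental and at 38.2, 46.3 and 52.1 in OTX P/R libraries. The EED ranges overlap, and its log2 fold change of 0.22 did not pass (interval -0.16 to 0.61, limma adjusted p = 0.319).

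As a description with no test, since the pair was chosen after its values were seen, the ratio of EZH2 to SUZ12 levels was 0.61, 0.842 and 0.798 in parental libraries and 2.99, 2.77 and 2.43 in OTX P/R libraries. Each parental library had less EZH2 than SUZ12 and each OTX P/R library more. The mean ratio was 0.75 ± 0.123 in parental and 2.73 ± 0.281 in OTX P/R cells (SD, n = 3 per group).

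**Figure D2:**
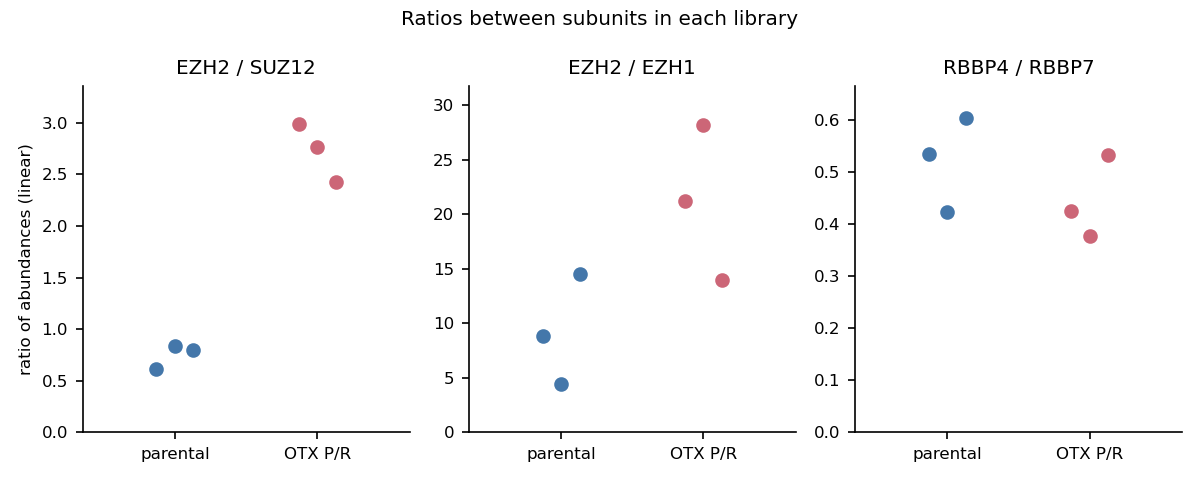
Ratios of linear abundances (vertical axes, each starting at 0) of EZH2 to SUZ12, EZH2 to EZH1 and RBBP4 to RBBP7; each point is 1 library. The EZH2 to SUZ12 ratio is 0.61 to 0.842 in parental and 2.43 to 2.99 in OTX P/R libraries, while the RBBP4 to RBBP7 ratios of the groups overlap.

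RBBP4 and RBBP7, close paralogs that also serve in other chromatin complexes, did not pass. RBBP4 was at 34.7, 32.4 and 38.7 in parental and at 31.9, 26.9 and 28.9 in OTX P/R libraries. Its parental libraries all lay above the OTX P/R ones by a small margin, and its log2 fold change of -0.26 (interval -0.48 to -0.04) had a limma adjusted p = 0.0661. RBBP7 was at 64.9, 76.7 and 64.1 in parental and at 75.2, 71.3 and 54.2 in OTX P/R libraries, which overlap (log2 fold change -0.04, interval -0.39 to 0.30, limma adjusted p = 0.832). The log2 ratio of RBBP4 to RBBP7 differed by -0.22 between the groups (exact two-sided permutation p = 0.4, 0.4 adjusted over the 2 pairs). RBBP4 overlaps SYNC and RBBP7 overlaps TXLNG on the opposite strand, and whether the counting used strand is not given in the sources used here. RBBP4 also has 6 processed pseudogenes in GENCODE v29.

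Among the accessory subunits PHF19 rose. PHF19, a Polycomb-like protein that binds methylated lysine of the H3K36me3 mark and helps bring PRC2 to chromatin, had the highest level of all members. It was at 81.8 and 77.4 in parental libraries 1 and 2, with library 3 between them, and at 97.5, 96.9 and 99.5 in OTX P/R libraries. The groups were apart and each was tight, with a ratio of means of 1.24 (log2 fold change 0.31 ± 0.04 SE, interval 0.20 to 0.41, limma adjusted p = 0.0025). Its paralogs did not pass. MTF2 was at 5.23, 3.35 and 6.13 in parental and at 6.08, 6.32 and 6.49 in OTX P/R libraries, with parental library 2 low and the ranges just overlapping (log2 fold change 0.34, interval -0.11 to 0.78, limma adjusted p = 0.202). PHF1 was at 5.25, 4.10 and 4.35 against 3.81, 4.06 and 3.06, all parental libraries above the OTX P/R ones by a narrow margin (log2 fold change -0.26, interval -0.55 to 0.03, limma adjusted p = 0.139); PHF1 overlaps CUTA on the opposite strand. AEBP2, a zinc finger protein of PRC2.2, was at 6.53, 6.33 and 7.06 against 7.13, 8.59 and 7.11, the OTX P/R libraries above the parental ones by a narrow margin (log2 fold change 0.17, interval -0.04 to 0.38, limma adjusted p = 0.184).

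With the values taken as per length, the members were ordered by level. In parental cells the order of the means was PHF19, RBBP7, EED, RBBP4, SUZ12, EZH2, AEBP2, MTF2, PHF1 and EZH1. The libraries of EED and RBBP4, and those of MTF2 and PHF1, overlapped, and the other neighbours in this order did not. In OTX P/R cells EZH2 and SUZ12 had changed places, EZH2 at a mean of 21.7 ± 1.38 and SUZ12 at 7.97 ± 0.41 (SD, n = 3 per group). SUZ12 was then next to AEBP2, at 7.61 ± 0.845, with overlapping libraries, and all other neighbours were apart. The order of the remaining members was the same in both groups.

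The genes next to EZH2 and SUZ12 on their chromosomes moved with them. For each member the 10 nearest tested genes on each side were described, leaving out the member itself. Around EZH2 on chromosome 7, 17 of 20 genes rose, 1 fell and 2 did not pass; their median log2 fold change was 0.70. EZH2 itself, at 0.86, lay 0.16 above that median, and 4 of the 20 were higher than EZH2. The nearest gene on one side, CUL1, a cullin ubiquitin ligase scaffold, rose from 17.2 ± 1.94 to 36.1 ± 1.07, and on the other PDIA4, a protein of disulfide bond formation, rose from 49.0 ± 1.43 to 72.7 ± 0.825 (SD, n = 3 per group; limma adjusted p = 3.56e-04 and 2.25e-04).

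Around SUZ12 on chromosome 17, 17 of 20 genes fell and 3 did not pass, and the median was -0.75. SUZ12 lay within this range, 13 neighbours above it and 7 below. UTP6, a factor of ribosomal RNA processing, fell from 17.5 ± 2.99 to 8.37 ± 1.12 (limma adjusted p = 0.00398), and LRRC37B, on the other side, did not pass at 2.27 ± 0.909 against 1.25 ± 0.226 (0.139; SD, n = 3 per group). EZH1, also on chromosome 17, had 19 of 20 neighbours that fell, with a median of -0.78. All 20 lay below EZH1, on a scale that shrinks the fold changes of low genes such as EZH1. Its log2 fold change was -0.36 with a pseudocount of 0.1 and -0.10 with a pseudocount of 5. The interval of EZH1, -0.88 to 0.41, takes in the neighbours' median, so EZH1 was not shown to differ from its surroundings. The width of that interval depends on parental library 2. The SE of EZH1 was 0.26 with all libraries, and without parental replicate 2 its difference was 0.05 with an SE of 0.15. VPS25, an endosomal sorting subunit beside EZH1, fell from 42.1 ± 1.60 to 19.1 ± 0.333, and PLEKHH3 on the other side from 1.80 ± 0.51 to 0.687 ± 0.065 (SD, n = 3 per group; limma adjusted p = 3.32e-05 and 0.0102).

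The other 7 members lay among genes whose median log2 fold change was -0.06 to 0.09. Around PHF19 on chromosome 9, 6 of 20 neighbours rose, 1 fell and 13 did not pass, with a median of 0.09, and PHF19 lay 0.21 above it. The genes beside PHF19, PSMD5 and CNTRL, had log2 fold changes of -0.03 and -0.01. RBBP4, which did not pass, differed by -0.31 from its neighbours' median of 0.05. In the median over the neighbours of a member, the libraries agreed closely: around EZH2 it was 0.69, 0.74 and 0.64 in OTX P/R libraries 1 to 3 relative to the parental mean, and around SUZ12 -0.72, -0.73 and -0.70.

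**Figure D3:**
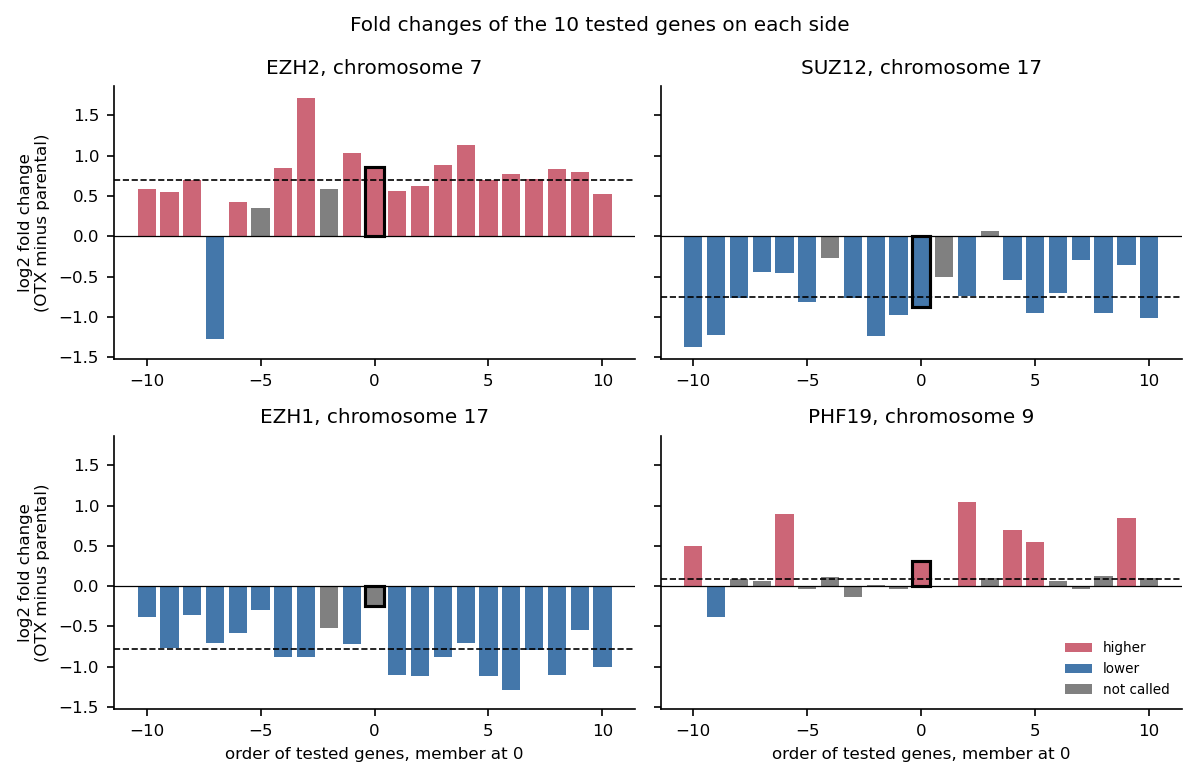
Log2 fold change (vertical axis, log2(value + 1), OTX P/R minus parental) of the 10 tested genes on each side of EZH2, SUZ12, EZH1 and PHF19 in chromosomal order (horizontal axis). The member is outlined at 0, colours show the limma call and dashed lines the neighbours' median, 0.70 around EZH2, -0.75 around SUZ12, -0.78 around EZH1 and 0.09 around PHF19.

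These neighbourhoods belong to longer runs of shifted genes. A run was taken as at least 25 consecutive tested genes whose running median over 25 genes was 0.3 or more in size on the same side, a description added after the data were seen. The run holding EZH2 spans 236 tested genes over 63.1 Mb of chromosome 7, 194 of which rose and 3 fell, with a median of 0.66. SUZ12 and EZH1 lie in the same run on chromosome 17, of 181 tested genes over 17.5 Mb, of which 153 fell and 2 rose, with a median of -0.73. In all, 8 such runs held 840 of the tested genes, or 7.82%. The rule picks genes that moved one way, so the counts of called genes in a run are a description. The other 7 members lie in none of the 8 runs, and of these PHF19 alone passed.

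**Figure D4:**
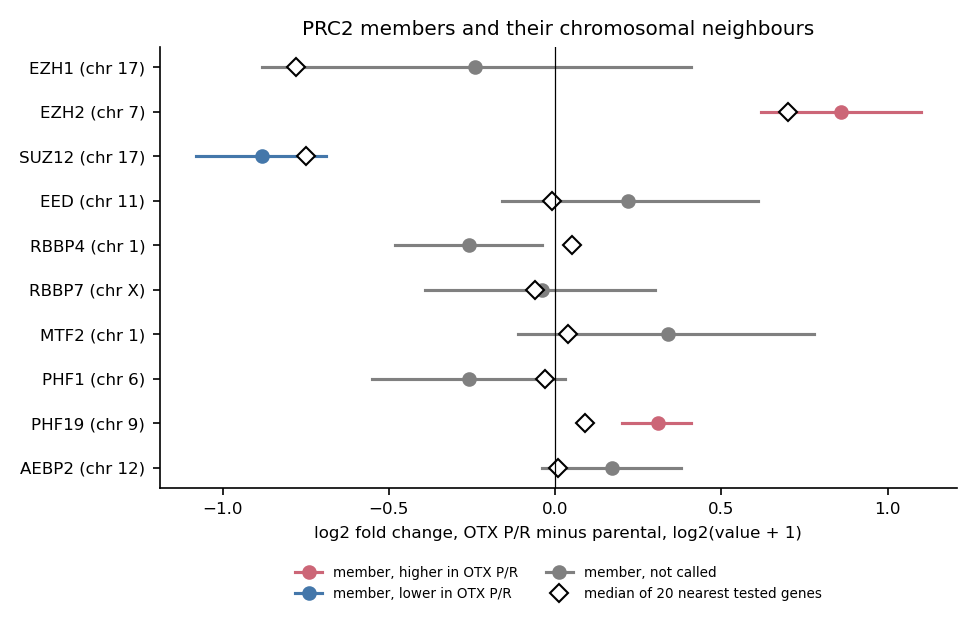
Log2 fold change (horizontal axis, log2(value + 1), OTX P/R minus parental) of each PRC2 member with its 95% interval (circles and lines, limma) and the median of its 20 nearest tested genes (open diamonds). The neighbour medians of EZH2, SUZ12 and EZH1 lie at 0.70, -0.75 and -0.78, inside the members' intervals. The PHF19 median of 0.09 lies below the interval of PHF19, and the RBBP4 median of 0.05 lies above the interval of RBBP4.

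Other genes of the Polycomb pathway were read against the shares over all tested genes, of which 36.1% passed, 18.6% higher and 17.5% lower. Of 5 tested accessory PRC2 genes outside the 10 members 2 rose and 3 did not pass, a share near that background. The list had a median log2 fold change of 0.29. JARID2, which anchors PRC2.2 to chromatin and lies in a run of higher genes on chromosome 6, was at 4.42, 5.17 and 4.25 in parental and at 6.53, 5.85 and 8.96 in OTX P/R libraries (log2 fold change 0.52, limma adjusted p = 0.0424). OTX P/R library 3 was the highest for JARID2, and the groups did not overlap. C10orf12, listed as a gene apart from LCOR in this table and known as an alternative product of that locus, passed upward with a log2 fold change of 0.35 (limma adjusted p = 0.0279). Its reads may be hard to part from those of LCOR, which did not pass at -0.04. Neither call was firm: the count was 0 without parental replicate 2, parental replicate 3 or OTX P/R replicate 3, and 1 without parental replicate 1 or OTX P/R replicate 1.

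PRC1 is the complex that ubiquitinates histone H2A and whose CBX subunits read the PRC2 mark. Of its 32 tested genes 5 rose and 1 fell, while 26 did not pass, against 36.1% of all tested genes that passed, and the median was 0.06. SCML2, a Polycomb protein of the Scm family, rose from 0.748 ± 0.0495 to 2.03 ± 0.173 and SCMH1, of the same family, from 5.99 ± 0.465 to 8.51 ± 0.271 (SD, n = 3 per group). The chromodomain gene CBX6 rose by a log2 fold change of 0.22, as did FBRS by 0.21, which is outside the rule for named genes and was named after its value was seen. PCGF2, a ring finger subunit in the chromosome 17 run, fell by 0.26 on the log2 scale. The number that rose was 3 without parental replicate 2, parental replicate 3, OTX P/R replicate 2 or OTX P/R replicate 3 and 2 without OTX P/R replicate 1; the PCGF2 call was lost, leaving 0, without parental replicate 2, parental replicate 3, OTX P/R replicate 1 or OTX P/R replicate 3.

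Of 10 tested genes of PR-DUB, the complex that removes the PRC1 ubiquitin mark, 2 rose and 8 did not pass, with a median of 0.02 (36.1% of all tested genes passed). These were FOXK2, a forkhead factor (log2 fold change 0.27), and KDM1B, a histone demethylase in the chromosome 6 run (0.65), the latter named after its value was seen. Of 16 tested demethylases of H3K27 and methyltransferase genes that oppose PRC2, 1 rose, 1 fell and 14 did not pass, against the same 36.1%, with a median of 0.17. The demethylase KDM6A was at 4.78, 5.71 and 3.54 in parental and at 4.55, 5.48 and 6.37 in OTX P/R libraries, which overlap (limma adjusted p = 0.421). KDM6B, the other H3K27 demethylase, had a log2 fold change of 0.19 (interval 0.03 to 0.35, limma adjusted p = 0.071). PAXIP1, of the KMT2C and KMT2D complexes, lies in the chromosome 7 run with EZH2 and rose from 1.82 ± 0.14 to 3.42 ± 0.301. NSD1, a methyltransferase of H3K36 in a run of lower genes on chromosome 5, was at 3.50, 2.16 and 1.17 in parental and at 0.324, 0.589 and 1.00 in OTX P/R libraries (limma adjusted p = 0.046). The NSD1 call held without parental replicate 3 but was lost, leaving 0, without parental replicate 1, parental replicate 2 or any OTX P/R replicate, and the number that rose was 2 without parental replicate 1 or OTX P/R replicate 1.

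Of 25 tested genes of the NuRD, SIN3 and CAF-1 complexes, which also hold RBBP4 or RBBP7, 2 rose, 1 fell and 22 did not pass, with a median of 0.04 (36.1% of all tested genes passed). CHD4, the NuRD remodeler, and MTA2, a NuRD scaffold, rose by 0.22 and 0.21, and SAP30L, a SIN3 subunit in a chromosome 5 run, fell by 0.82 on the log2 scale. The number that rose was 0 without parental replicate 2, parental replicate 3, OTX P/R replicate 2 or OTX P/R replicate 3 and 1 without OTX P/R replicate 1, and the number that fell was 2 without parental replicate 1.

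Few genes described as PRC2 targets in other cells were expressed in either line. Of 24 listed 5 reached the tested range, 3 were listed at 0 in every library (CDKN2A, CDKN2B and SOX17), and whether any of them is a PRC2 target in SET-2 was not measured. TIMP3, an inhibitor of matrix metalloproteases, was at 52.0, 49.9 and 50.6 in parental and at 216, 224 and 229.7 in OTX P/R libraries (log2 fold change 2.11 ± 0.04 SE, limma adjusted p = 3.99e-06). VASH1, an angiogenesis inhibitor and tubulin carboxypeptidase, was at 7.80, 8.05 and 8.21 against 17.7, 17.5 and 16.5 (1.02 ± 0.05). RUNX3, a runt-domain transcription factor, was at 3.94, 4.74 and 4.09 against 1.48, 1.57 and 1.29 (-1.10 ± 0.09). The groups of all of these were far apart, with rises of TIMP3 and VASH1 and a fall of RUNX3. HOXA10 rose (log2 fold change 0.37), and the neighbouring HOXA9 did not pass at -0.04 (interval -0.26 to 0.17). In all, 3 of the 5 rose, 1 fell and 1 did not pass, and the median was 0.37 (36.1% of all tested genes passed). With no filter on low values, 3 rose and 4 fell. Some listed genes below the tested range also had no overlap between the groups, and these were named after their values were seen. PAX6, PRDM1, CDKN1C and TIMP2 were lower, at means of 1.27, 1.06, 0.44 and 0.0924 in parental and 0.131, 0.262, 0.0952 and 0.0569 in OTX P/R libraries. KLF2 and BMPR1B were higher, at means of 0.0434 and 9.32e-05 in parental and 0.113 and 4.23e-04 in OTX P/R libraries. The remaining listed genes below the tested range overlapped or were at 0 in every library. Of all tested genes 51.6% had no overlap, but that set leaves out genes this low, and no share was taken over untested genes. Values such as those of BMPR1B lie near the floor of the table, so their direction carries little meaning. None of the 5 tested genes lies in a run of shifted genes.

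EZH2 is known as a gene of the E2F and S phase program, so that program was described beside it. Of 47 tested S phase and E2F target genes 16 rose and 2 fell, while 29 did not pass; the list had a median log2 fold change of 0.16. Over all tested genes 18.6% rose and 17.5% fell, 36.1% in all, so the share that changed was near the background, with more of the changed genes higher. CCNE2, a cyclin of S phase entry, was at 1.34, 1.52 and 1.63 in parental and at 2.66, 4.50 and 4.36 in OTX P/R libraries (log2 fold change 0.93). GMNN, the inhibitor of origin licensing, in the chromosome 6 run, rose by 0.75, MCM7, a replicative helicase subunit in the chromosome 7 run with EZH2, by 0.57, and UNG, a uracil glycosylase, by 0.46. CDC6, a licensing factor in the chromosome 17 run with SUZ12, fell by 0.61 and the cyclin gene CCNE1 fell by 0.33 on the log2 scale. Of the 18 that changed 3 lie in runs of shifted genes. The part of proliferation in the rise of EZH2 was not tested.

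**Figure D5:**
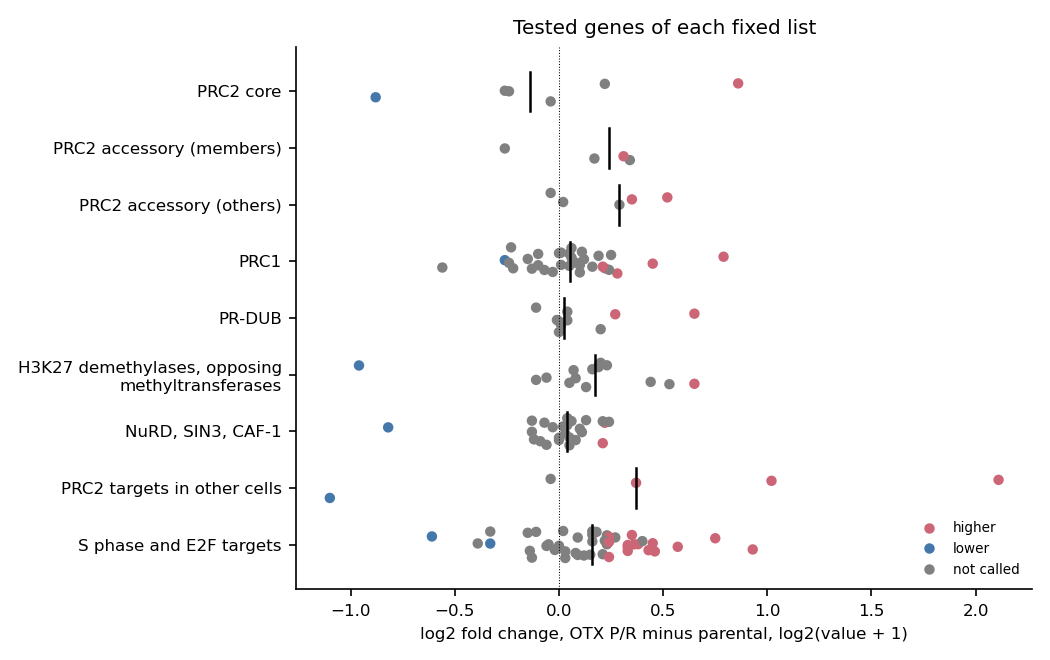
Log2 fold change (horizontal axis, log2(value + 1), OTX P/R minus parental) of the tested genes of each fixed list; each point is 1 gene coloured by its limma call, and black bars are list medians. The medians lie between -0.14 for the PRC2 core and 0.37 for the PRC2 targets of other cells, whose highest point is TIMP3 at 2.11.

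Over the 6 libraries, the genes whose pattern was most like that of EZH2 were RAVER2, ARRDC3, SCCPDH and GOLGA8N, with Pearson correlations of log2 values of 0.9990 to 0.9967. With 2 groups these values mostly restate a difference between the groups. For EZH1 the most similar were CNRIP1, USP33, AMHR2 and a gene listed by its clone name, with 0.9837 to 0.9620 and log2 fold changes of -0.07 to -0.03.

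Markers of the labelled and of other cell types were read beside these results. The background is the share over all tested genes, of which 18.6% rose and 17.5% fell. Of 11 megakaryoblast markers 7 were tested, 5 rose, 1 fell and 1 did not pass; ITGA2B fell from 216 ± 11.5 to 138 ± 3.73 (SD, n = 3 per group). PF4, a defining platelet granule gene, was listed at 0 in every library. The summed level of that list was 268 to 292 in parental and 282 to 286 in OTX P/R libraries. For T and NK cells 3 of 3 tested markers fell, with sums of 72.0 to 78.6 against 30.9 to 33.3 and GZMA at 0 in every library. NKG7 alone, at means of 62.2 and 29.6, made up most of these sums. CD3E and CD3G were below the tested range, at means of 0.00994 and 0.0254 in parental and 0.0174 and 0.0207 in OTX P/R libraries. For B cells 2 of 2 fell, with sums of 13.8 to 16.1 against at most 10.9 and MS4A1 at 0 in every library. For monocytes 2 of 3 fell, with sums of 324 to 354 against 194 to 218 and CD14 at means of 0.0346 and 0.0584. CD68, at means of 237 and 111, and LYZ, which did not pass at 95.7 and 92.2, made up most of the monocyte sums. No stromal marker reached the tested range, with sums of 0.274 to 0.31 against 1.99 to 2.08; COL1A1 alone, at means of 0.0732 and 1.92, made up most of the OTX P/R sum, while COL1A2, COL3A1 and PDGFRB had lower means in OTX P/R libraries. The part of these markers in the results for PRC2 genes was not tested.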

How the data were processed

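Per the submitters' processing notes, Trim Galore, HISAT2 and StringTie were used with build hg19; their versions, the annotation and strand use are not stated in the labels. As deposited, each value is a signal, an abundance per gene and library on a linear scale; whether it is FPKM or TPM is not given in the sources used here. Sorted from low to high, the libraries' values of 1 or more differ by no more than 0.243%, so the authors' table is quantile-normalized; total RNA and depth are not kept, and no counting intervals are given. Of the 19785 genes 6 had a missing value and were left out.

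Groups came from the sample titles. The limma package (3.58.1, R 4.3.3) was run on log2(value + 1) for the 10741 genes whose mean was 1 or more (eBayes with trend, two-sided, Benjamini-Hochberg over all tested genes, called under 0.05). Ratios of paralogs were tested by exact permutation of the libraries. The procedure was run on simulated data in which genes varied independently and few were changed. In the real data many genes changed and neighbours moved together, so that check says little about the calls reported here. Gene order and lengths of runs came from GENCODE v29 on GRCh38, matched by identifier without version for 19528 genes. Only chromosomes, order and distances were used from it. With their version 16270 identifiers also matched, so the annotation behind the table may be on GRCh38 although the notes name hg19. Which build applies was not settled.

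The members, lists and tests were chosen with earlier results of these data known. Named genes are the 10 members, up to 4 called genes per list and direction whose higher group had a mean of 2 or more, the nearest genes of members whose neighbours had a median of 0.3 or more in size, and the 4 genes most correlated with EZH2 and with EZH1; some genes under this rule are not reported here. Alternatives were other pseudocounts, filters and priors, median centring, a replicate block, each library left out and 5 or 25 neighbours on each side. Python 3.11.15, pandas 2.3.3, NumPy 2.4.6 and Matplotlib 3.10.9 were used.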

Additional observations from a re-analysis of the deposited data

How the results depend on the processing

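The rises of EZH2 and PHF19 and the fall of SUZ12 were called under every alternative run, and no other member was called under any of them. Over the libraries left out in turn, log2 fold changes were 0.77 to 0.93 for EZH2, 0.29 to 0.33 for PHF19 and -0.95 to -0.84 for SUZ12. Those of EZH1 were -0.42 to 0.05, changing sign without parental replicate 2 (0.05), and those of RBBP7 -0.13 to 0.10, changing sign without parental replicate 2 (0.04) or OTX P/R replicate 3 (0.10). With a minimum mean of 5 EZH1 and PHF1 were not tested. No label ties same-numbered libraries of the groups together. Their deviations from the group means had correlations of -0.0647, -0.0277 and -0.000294, so no shared deviation was seen. These values cannot show whether the libraries were prepared in pairs. With the replicate block the number of all genes that rose was 1607 against 1998 and that fell 1552 against 1881.

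Counts in the lists were small and moved easily. For accessory PRC2 genes 1 rose with no filter, a minimum mean of 5 or the replicate block, and 0 to 2 with a library left out. For PRC1 2 rose and 0 fell with the replicate block, and 2 to 5 rose and 0 to 1 fell with a library left out. For PR-DUB 1 fell with no filter, and 1 rose with a minimum mean of 5 or the replicate block. For the genes opposing PRC2 0 fell with a pseudocount of 5, no filter, a minimum mean of 5 or the replicate block, 0 rose with a minimum mean of 5, 2 rose with a prior without trend, and 1 to 2 rose and 0 to 1 fell with a library left out. For NuRD, SIN3 and CAF-1 0 fell with a minimum mean of 5, 0 rose with the replicate block, and 0 to 2 rose and 1 to 2 fell with a library left out. For the PRC2 targets of other cells 4 fell with no filter and 0 with a minimum mean of 5.

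With 5 or 25 tested genes on each side the neighbour median was -0.88 or -0.71 for EZH1, 0.77 or 0.79 for EZH2, -0.06 or 0.09 for RBBP4 and 0.06 or 0.03 for PHF19. With 5 it was -0.26 for EED, 0.08 for PHF1 and -0.08 for AEBP2, and with 25 it was -0.04 for MTF2. The causes of these differences were not tested. The log2 ratio of EZH2 to EZH1 differed by 0.79 to 1.36 over the alternatives. Depth is unknown, so the precision of low members such as EZH1 rests on the spread of 3 libraries.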
